A study of Macaca mulatta with 12 samples.

Results

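Genes of the immunoproteasome and of MHC class I peptide loading were followed in 12 RNA-seq libraries of macrophages from rhesus macaques (Macaca mulatta). A list of 10 genes was set, and 6 of them (PSMB8, PSMB9, PSME1, PSME2, TAPBP and NLRC5) were matched to rows of the count table, which holds 32386 genes. PSMB10, TAP1, TAP2 and B2M were matched to no row by symbol, by a macaque name table or by the names in the authors' tables, and are not analysed here. All 6 matched genes passed the filter on low counts, which left 11826 genes to be tested.

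The cells were CD14+CD16-CD163+ macrophages sorted from peripheral blood of animals that had received their own mobilized CD34+ cells after CRISPR/Cas9 treatment. The study's title names TET2-mutant hematopoiesis. Macrophages were sorted 19 months after transplantation (late) or 4.5 months after it (early). They were then cultured for 8 h with lipopolysaccharide (LPS) at 100 ng/ml and interferon-gamma at 20 ng/ml (stimulated), or without them (unstimulated); the protocol names both agents, while the treatment label names LPS. The 4 groups were late stimulated, late unstimulated, early stimulated and early unstimulated, with 3 libraries in each. All 4 groups share the transplant of edited cells, so no comparison here sets edited against unedited cells, and no label says that edited and unedited macrophages were separated. Whether the replicates of a group came from different animals or from different wells is not stated in the labels, so the spread behind each p-value may be technical. Time after transplant and any difference in handling between the sorting times cannot be told apart.

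Proteasomes are barrel-shaped proteases that cut intracellular proteins into peptides. When cells sense interferon-gamma, the catalytic subunits PSMB5, PSMB6 and PSMB7 of the barrel can be replaced by PSMB8, PSMB9 and PSMB10, which makes the immunoproteasome, and the activator ring of PSME1 and PSME2 can cap the barrel. Peptides are carried into the endoplasmic reticulum by the transporter of TAP1 and TAP2, to which TAPBP (tapasin) tethers empty MHC class I molecules, each a heavy chain paired with B2M. NLRC5 is the transcriptional activator of class I genes, and in human cells its known targets include PSMB9, TAP1 and B2M.

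Library totals ran from 3910680 to 12972505 counts, and levels are given as CPM, that is, per library total after TMM scaling, with no correction for gene length. CD14 averaged 1454 CPM in late stimulated, 1506 CPM in late unstimulated, 2562 CPM in early stimulated and 2169 CPM in early unstimulated libraries. CD163 averaged 545.6, 585.8, 1314 and 1197 CPM in the same order of groups, and FCGR3, which encodes the CD16 that was sorted against, averaged 40.8, 43.3, 36.1 and 39.0 CPM. Of 10 further macrophage or monocyte markers 9 were found, and they summed to between 3681 and 4379 CPM in late libraries and between 4650 and 7023 CPM in early libraries. Most of that sum was LYZ. CD14, CD163 and that sum were thus at lower levels late, while MRC1 averaged 2.27 CPM in late stimulated, 3.29 CPM in late unstimulated, 1.52 CPM in early stimulated and 1.47 CPM in early unstimulated libraries, and MSR1 averaged 28.5, 33.8, 30.3 and 24.2 CPM in that order. Their part in the results below was not tested. In bulk libraries, fewer cells of a type and less RNA per cell cannot be told apart. The neutrophil list (6 of 8 found) summed to between 323.8 and 412.9 CPM in late libraries and between 652 and 760.5 CPM in early libraries. CSF3R and CAMP made up most of that sum, while the mean of MPO was 1.95 CPM in early stimulated libraries and lower in the other groups. The part of this list was not tested. Dendritic cell markers summed to between 50.6 and 60.9 CPM in late and between 55.7 and 73.9 CPM in early libraries, and erythroid markers to between 10.1 and 19.4 CPM in late and between 21.5 and 32.9 CPM in early libraries. T cell, B cell, NK cell and platelet lists reached at most 8.91, 12.6, 14.1 and 4.54 CPM in any library, and no marker found was at 0 in all libraries. Early stimulated library 1 and late unstimulated library 3 differed most from the other libraries of their groups.

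PSMB8, PSMB9, TAPBP and NLRC5 were lower in late than in early macrophages by 0.79 to 1.71 on the log2 scale, and PSME2 by 0.31 to 0.43. By edgeR's quasi-likelihood test with Benjamini-Hochberg adjustment, 5 of the 6 genes were lower in late unstimulated libraries, where 19.8% of all tested genes were lower and 20.9% higher. The same 5 genes, PSMB8, PSMB9, PSME2, TAPBP and NLRC5, were lower in late stimulated libraries, where 19.7% of tested genes were lower and 19.1% higher. None of the 6 was higher. The median log2 fold change of late over early was -1.18 over the 6 genes in unstimulated cells, beside 0.02 over all genes, and -1.09 in stimulated cells, beside 0.05 over all genes. PSME1 was the gene that did not pass. The CPM of late libraries lay below those of early libraries without overlap for 6 of the 6 genes in unstimulated cells, as for 26.1% of tested genes, and for 5 of 6 in stimulated cells, as for 24.5% of tested genes.

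**Figure D1:**
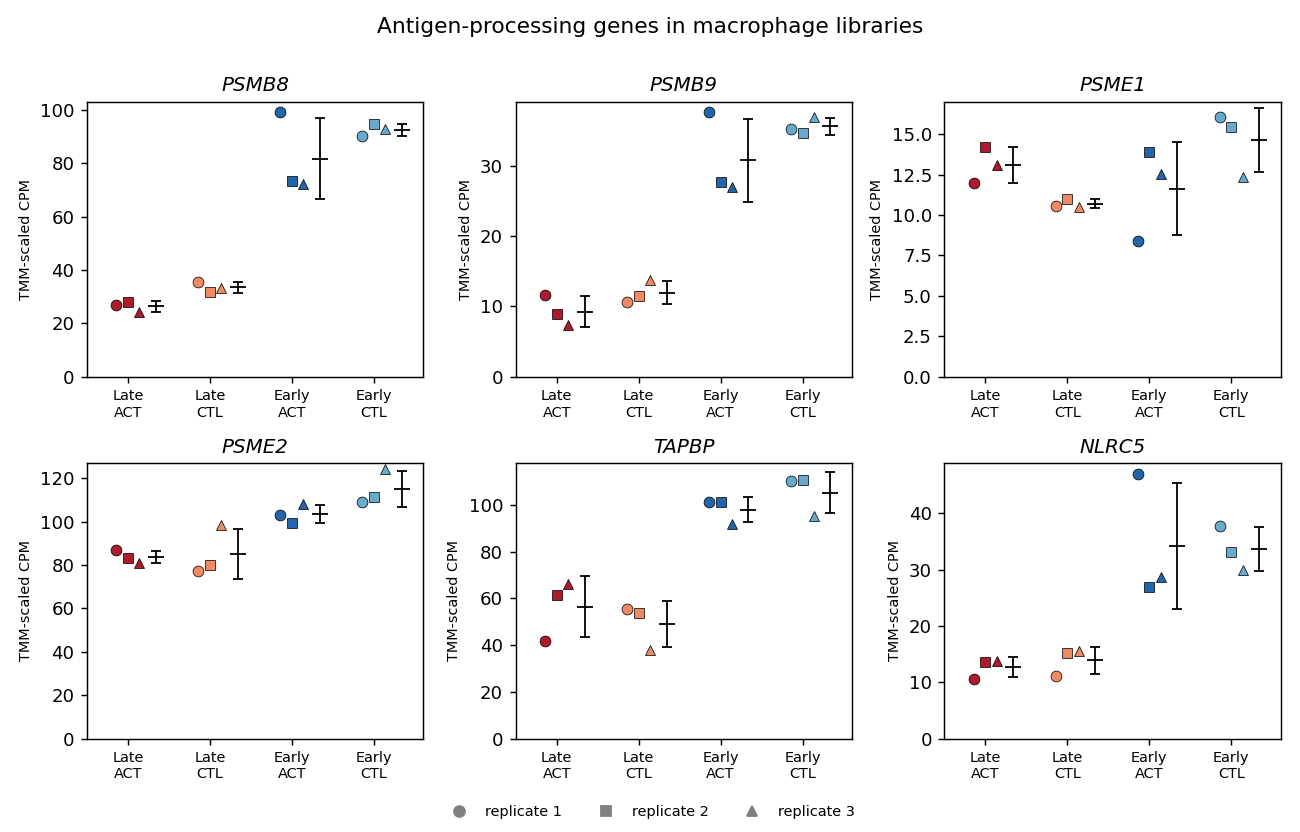
TMM-scaled CPM (vertical axes, from 0) of the 6 genes in each library, by group (horizontal axes); ACT is stimulated, CTL unstimulated, marker shapes are replicates, and bars are the mean ± SD of 3 libraries. PSMB8, PSMB9, PSME2, TAPBP and NLRC5 show no overlap between late and early libraries in unstimulated or in stimulated cells. Late libraries lay below early ones without overlap for 26.1% of tested genes in unstimulated and 24.5% in stimulated cells. The PSME1 groups lie close together and overlap in stimulated cells.

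PSMB8 (ENSMMUG00000011301; chromosome 4, 33655307 to 33661474 in Mmul_8.0.1) encodes the chymotrypsin-like catalytic subunit that replaces PSMB5. In unstimulated cells PSMB8 stood at 35.6, 31.7 and 33.2 CPM in the late libraries, against 90.0, 94.6 and 92.7 CPM in the early libraries. In stimulated cells PSMB8 stood at 26.9, 28.1 and 24.1 CPM in the late libraries, against 99.3, 73.5 and 72.4 CPM in the early libraries. The highest late library lay far below the lowest early library, and early stimulated library 1 stood above the other libraries of its group. The log2 fold change of late over early was -1.47 ± 0.14 in unstimulated cells (SE; edgeR adjusted p = 1.23e-08) and was -1.62 ± 0.14 in stimulated cells (adjusted p = 4.14e-09). In the authors' deposited table these values are -1.46 ± 0.13 and -1.62 ± 0.18.

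PSMB9 (ENSMMUG00000011304; chromosome 4, 33670192 to 33697456) encodes the subunit that replaces PSMB6 and is a neighbour of PSMB8 in the MHC. In unstimulated cells PSMB9 stood at 10.6, 11.5 and 13.8 CPM in the late libraries, against 35.2, 34.7 and 37.0 CPM in the early libraries. In stimulated cells it stood at 11.6, 8.87 and 7.36 CPM in the late libraries, against 37.6, 27.8 and 26.96 CPM in the early libraries. As for PSMB8, late and early libraries did not overlap, and early stimulated library 1 was the highest of its group. The log2 fold change was -1.56 ± 0.19 in unstimulated cells (SE; edgeR adjusted p = 4.59e-07) and was -1.71 ± 0.19 in stimulated cells (adjusted p = 1.82e-07). Among the 11826 tested genes, ordered from the most negative log2 fold change, PSMB9 was number 227 and PSMB8 number 280 in unstimulated cells. In stimulated cells they were numbers 104 and 124.

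The balance of PSMB8 and PSMB9 overlapped between late and early libraries. The ratio of PSMB8 counts to PSMB9 counts, a ratio added after the values were seen, lay between 2.3 and 3.36 in all 12 libraries, with no correction for length. Its log2 value had an SD of 0.24 in late unstimulated and 0.28 in late stimulated libraries. In early unstimulated and early stimulated libraries the SD was 0.06 and 0.01. PSMB9 counts in the late libraries ran from 42 to 91. In the current RefSeq assembly of the species, which differs from the build of the counts and was used here for gene order only, TAP1 and TAP2 flank PSMB8, and TAP1 overlaps PSMB9. Reads were not marked by strand, so reads of PSMB9 and of an overlapping gene cannot be told apart where they overlap. The same limit holds for PSMB8 and NLRC5, which overlap genes without a symbol of their own in that assembly.

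TAPBP (ENSMMUG00000003875; chromosome 4, 34145483 to 34158039) encodes tapasin, which bridges empty class I molecules and the peptide transporter and favours the loading of tightly binding peptides. In unstimulated cells TAPBP stood at 55.5, 53.8 and 37.8 CPM in the late libraries, against 110.0, 110.5 and 95.2 CPM in the early libraries. Stimulated cells had 41.6, 61.6 and 66.0 CPM in the late libraries, against 101, 101 and 91.7 CPM in the early libraries. Late and early libraries did not overlap, and the late libraries spread more widely than the early ones. The log2 fold change was -1.11 ± 0.16 in unstimulated cells (SE; edgeR adjusted p = 6.53e-06) and was -0.79 ± 0.16 in stimulated cells (adjusted p = 0.000339). TAPBP overlaps WDR46 in the RefSeq assembly, with the same limit on strand.

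NLRC5 (ENSMMUG00000000769; chromosome 20, 41204570 to 41299534) encodes the activator that binds class I promoters together with RFX and other factors. In unstimulated cells NLRC5 stood at 11.1, 15.1 and 15.5 CPM in the late libraries, against 37.7, 33.1 and 29.95 CPM in the early libraries. Under stimulation the gene stood at 10.6, 13.6 and 13.7 CPM in the late libraries, against 47.1, 26.8 and 28.7 CPM in the early libraries. The late libraries ran from 10.6 to 15.5 CPM, while early stimulated library 1 stood far above the other libraries of its group. The log2 fold change was -1.25 ± 0.20 in unstimulated cells (SE; edgeR adjusted p = 3.16e-05) and was -1.40 ± 0.20 in stimulated cells (adjusted p = 8.2e-06). NLRC5 was number 500 of 11826 from the most negative in unstimulated cells and number 234 in stimulated cells.

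PSME2 (ENSMMUG00000012473; chromosome 7, 85554949 to 85558309) encodes the beta subunit of the PA28 activator ring. In unstimulated cells PSME2 stood at 77.2, 80.1 and 98.4 CPM in the late libraries, against 109.1, 111.6 and 124.4 CPM in the early libraries. In stimulated cells it stood at 86.8, 83.5 and 81.0 CPM in the late libraries, against 103.3, 99.4 and 108 CPM in the early libraries. The groups did not overlap, and the gap was small beside that of PSMB8 or PSMB9. The log2 fold change was -0.43 ± 0.12 in unstimulated cells (SE; edgeR adjusted p = 0.00634) and was -0.31 ± 0.12 in stimulated cells (adjusted p = 0.0477). The call in stimulated cells was lost in 13 of 20 alternatives, 8 of which left out a single library, with adjusted p-values up to 0.317. The authors' deposited table gives -0.42 ± 0.12 for PSME2 in unstimulated cells and does not list it for stimulated cells.

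PSME1 (ENSMMUG00000012462) encodes the alpha subunit of the same ring. In unstimulated cells PSME1 stood at 10.6, 11.0 and 10.5 CPM in the late libraries, against 16.1, 15.5 and 12.4 CPM in the early libraries. Stimulated libraries held 12.0, 14.2 and 13.1 CPM in the late libraries, against 8.42, 13.9 and 12.5 CPM in the early libraries. The unstimulated groups did not overlap, while the stimulated groups overlapped. The log2 fold change was -0.44 ± 0.21 in unstimulated cells (SE; edgeR adjusted p = 0.0887) and was 0.13 ± 0.20 in stimulated cells (95% interval -0.28 to 0.54; adjusted p = 0.643). Without early stimulated library 1 the log2 fold change passed in unstimulated cells, at -0.46 (adjusted p = 0.0408), and was -0.03 in stimulated cells. That library held 34 reads of PSME1, the lowest count of any of the 6 genes, which gives a 95% Poisson interval of 5.83 to 11.8 CPM. PSME1 overlaps EMC9 in the RefSeq assembly, and PSME2 lies next to EMC9.

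**Figure D2:**
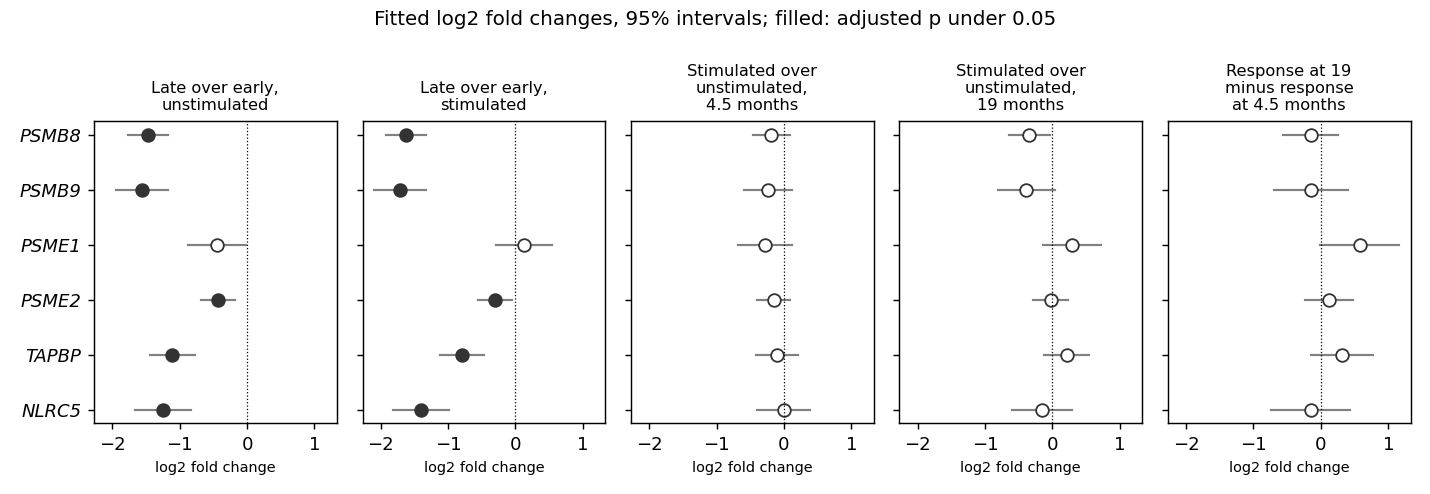
Log2 fold change (horizontal axes) of each gene in 5 comparisons, with bars for the 95% interval; filled points passed an adjusted p of 0.05 in edgeR's quasi-likelihood test. In both late over early panels 5 of 6 points are filled and left of 0, and in the other panels no point is filled.

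Stimulation with LPS and interferon-gamma did not move any of the 6 genes past the threshold. At 4.5 months 0 of 6 passed in edgeR and 0 in DESeq2, and 0 had an unadjusted p under 0.05, while 7.23% of all tested genes (855) passed in edgeR. PSMB8 averaged 81.7 ± 15.3 CPM in early stimulated and 92.4 ± 2.32 CPM in early unstimulated libraries (SD, n = 3 each), a log2 fold change of -0.19 (95% interval -0.46 to 0.08). PSMB9 averaged 30.8 ± 5.95 CPM in early stimulated and 35.7 ± 1.22 CPM in early unstimulated libraries, a log2 fold change of -0.23 (-0.59 to 0.12). Both genes are known from other cells as targets of interferon-gamma.

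TAPBP had a log2 fold change of -0.11 (95% interval -0.42 to 0.21), NLRC5 of -0.01 (-0.39 to 0.38) and PSME1 of -0.28 (-0.69 to 0.13) in early cells. PSME2 averaged 104 ± 4.30 CPM in early stimulated and 115 ± 8.19 CPM in early unstimulated libraries, with no overlap, as for 13.0% of tested genes with lower values in stimulated libraries, and a log2 fold change of -0.15 (-0.40 to 0.10). Adjusted p-values of the 6 genes ran from 0.433 to 0.993. Early stimulated library 1 held the highest level of PSMB8, PSMB9 and NLRC5 in its group. Without it PSMB8 had a log2 fold change of -0.34 and passed (adjusted p = 0.0306, edgeR). The calls at 4.5 months also depend on the scaling of this group, whose TMM factors of 0.879 to 0.909 were the lowest. With library totals alone 3 of the 6 genes passed as lower (PSMB8, PSMB9 and PSME2), as did 2134 of the 11826 tested genes. The median over all genes was then -0.28.

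At 19 months 0 of the 6 genes passed in edgeR, and 0.0% of all tested genes did. By DESeq2 0 of the 6 genes and 15 genes in all passed, and by unadjusted p under 0.05 in edgeR 1 of the 6 and 527 genes in all did. That gene was PSMB8, which averaged 26.4 ± 2.02 CPM in late stimulated and 33.5 ± 1.95 CPM in late unstimulated libraries (SD, n = 3 each), with no overlap, as for 5.57% of tested genes with lower values in stimulated libraries. Its log2 fold change was -0.34 (95% interval -0.64 to -0.04; adjusted p = 0.998, edgeR). PSMB9 had a log2 fold change of -0.39 (-0.81 to 0.04), NLRC5 of -0.16 (-0.60 to 0.29) and PSME2 of -0.03 (-0.28 to 0.23). PSME1 had a log2 fold change of 0.29 (-0.14 to 0.72), with no overlap, as for 5.44% of tested genes with higher values in stimulated libraries, and TAPBP of 0.21 (-0.12 to 0.54).

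The response at 19 months minus that at 4.5 months did not pass for any of the 6 genes (0 in edgeR, 0 in DESeq2, 0 at an unadjusted p under 0.05), while 1.41% of tested genes passed in edgeR. The widest difference was that of PSME1, 0.57 on the log2 scale (95% interval -0.02 to 1.17; adjusted p = 0.477). TAPBP had a difference of 0.31 (adjusted p = 0.652), and the other 4 genes lay between -0.15 and 0.12. The same contrast is the difference between the late over early changes in stimulated and in unstimulated cells, so those changes were not shown to differ for any of the 6 genes.

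Replacing subunits were then set against the subunits they replace, within each library, so that no scaling between libraries enters. PSMB5 was lower late in unstimulated cells and PSMB6 in both comparisons. PSMB5 averaged 48.1 CPM in late unstimulated and 64.3 CPM in early unstimulated libraries, a log2 fold change of -0.42 (adjusted p = 0.0284, edgeR) whose call was lost in 5 of 20 alternatives, and 48.7 CPM in late stimulated and 57.8 CPM in early stimulated libraries, a log2 fold change of -0.23 that did not pass (adjusted p = 0.242). PSMB6 had log2 fold changes of -0.60 (adjusted p = 0.00497) without stimulation and -0.79 (adjusted p = 0.00061) with it. Its row carries a name only in the authors' tables, which list genes that passed their own test, so its call was not independent of its name. PSMB7 was matched to no row, and its ratio to PSMB10 was not computed.

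The log2 ratio of PSMB8 to PSMB5 counts averaged -0.52 ± 0.16 in late unstimulated and 0.53 ± 0.15 in early unstimulated libraries (SD, n = 3 each). It averaged -0.88 ± 0.21 in late stimulated and 0.51 ± 0.07 in early stimulated libraries. PSMB8 counts thus exceeded PSMB5 counts in every early library and fell short of them in every late library, without correction for gene length. The differences of -1.05 and -1.39 each had p = 0.1 in a two-sided exact permutation test, the smallest p that 3 against 3 libraries allow.

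The log2 ratio of PSMB9 to PSMB6 counts averaged -2.07 ± 0.22 in late unstimulated and -1.13 ± 0.06 in early unstimulated libraries (SD), and -2.31 ± 0.35 in late stimulated and -1.35 ± 0.10 in early stimulated libraries. The differences were -0.93 and -0.96, with no overlap and an exact permutation p of 0.1 each. For the activator rings, PSME3 was the comparison gene, whose product forms a related ring in the nucleus that is known to depend less on interferon. PSME3 averaged 313 CPM in late unstimulated and 258 CPM in early unstimulated libraries (log2 fold change 0.28, adjusted p = 0.0879, edgeR), and 315 CPM in late stimulated and 246 CPM in early stimulated libraries (0.35, adjusted p = 0.0312), a call lost in 6 of 20 alternatives, among them that without early stimulated library 1. The log2 ratio of PSME2 to PSME3 differed by -0.72 between late and early unstimulated libraries and by -0.68 between the stimulated ones, with an exact permutation p of 0.1 each. The ratio of PSME1 to PSME3 differed by -0.72 in unstimulated cells (exact permutation p = 0.1) and by -0.18 in stimulated cells, where the groups overlapped (exact permutation p = 0.4).

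**Figure D3:**
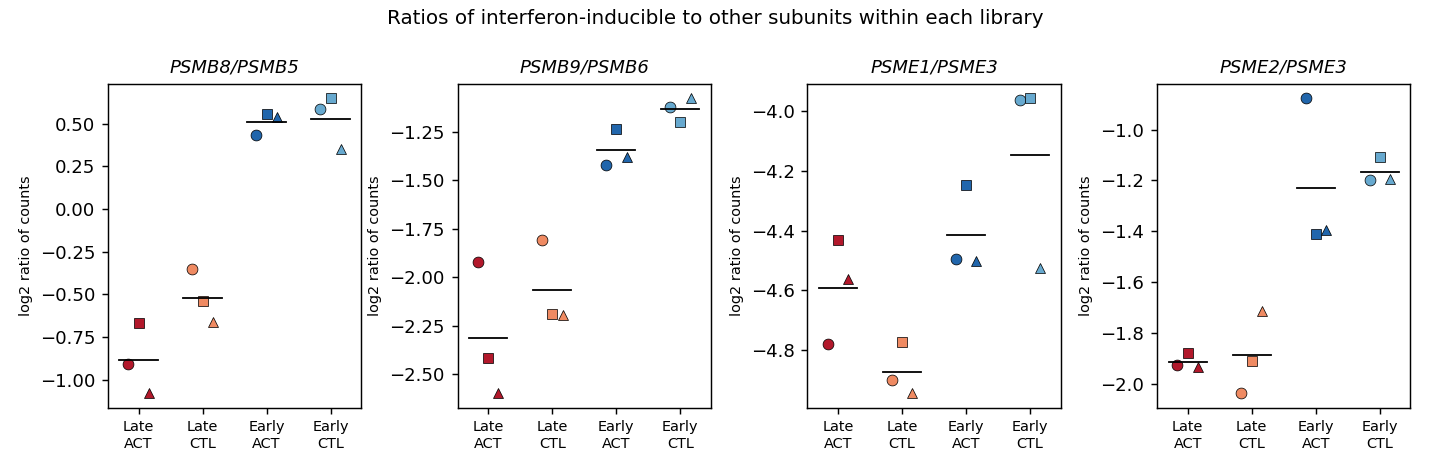
Log2 ratio of counts of an interferon-inducible gene to those of its comparison gene in each library (vertical axes, which do not start at 0), by group; ACT is stimulated, CTL unstimulated, and lines are group means of 3 libraries. PSMB8 over PSMB5 is above 0 in every early library and below 0 in every late library, and PSME1 over PSME3 overlaps between the stimulated groups.

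Under stimulation the PSMB8 to PSMB5 ratio differed by -0.02 at 4.5 months (exact permutation p = 0.8) and by -0.37 at 19 months, where the groups did not overlap (p = 0.1, exact permutation test). The PSMB9 to PSMB6 ratio differed by -0.21 at 4.5 months without overlap (exact permutation p = 0.1) and by -0.25 at 19 months with overlap (exact permutation p = 0.4). None of the 4 ratios was higher in stimulated libraries without overlap. In all, 16 comparisons of the 4 ratios were made, and p-values were not adjusted because none could pass.

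IRF1, an interferon-induced transcription factor that binds the promoters of PSMB9 and TAP1 in human cells, was also lower late. It stood at 436.1, 434.9 and 469.7 CPM in late unstimulated libraries, against 689.5, 671.8 and 654.3 CPM in early unstimulated libraries. In stimulated cells IRF1 stood at 383.4, 445.5 and 440.7 CPM in late libraries, against 863.5, 646.1 and 654.9 CPM in early libraries. No late library reached the lowest early one, and the log2 fold changes were -0.59 ± 0.12 without stimulation (SE; adjusted p = 0.000322, edgeR) and -0.77 ± 0.12 with it (adjusted p = 1.86e-05). IRF1 did not pass on stimulation at either time.

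In the list of class I transcription and interferon-gamma signalling genes, 9 of 18 tested genes were lower and 1 was higher in late unstimulated libraries. Over all tested genes 19.8% were lower and 20.9% higher there. The median of the list was -0.31, beside 0.02 over all genes. Without both libraries that stood apart 9 were lower and 4 higher. In late stimulated libraries 8 were lower and 2 higher, where 19.7% of all tested genes were lower and 19.1% higher. The median of the list was -0.37 there, beside 0.05 over all genes. STAT2, which binds IRF9 in the type I interferon complex, had log2 fold changes of -0.84 without stimulation (adjusted p = 0.000149) and -1.39 with it (adjusted p = 2.15e-07). SOCS1, a feedback inhibitor of the pathway, had log2 fold changes of late over early of -1.01 without stimulation (adjusted p = 1.86e-05) and -0.70 with it (adjusted p = 0.000855). IRF9 had -0.39 (adjusted p = 0.0105) and -1.07 (adjusted p = 2.15e-07), the first lost with upper-quartile factors. On stimulation at 4.5 months IRF9 was higher (0.42, adjusted p = 0.0292) and so was NFKB1, a subunit of NF-kappa-B (0.34, adjusted p = 0.0326). These calls were lost in 5 and 12 of 20 alternatives. The IRF9 response differed between the times, by -0.68 (adjusted p = 0.0379), a call lost in 11 of 19 alternatives, among them library totals only, the replicate block and the fit without late unstimulated library 3. IRF1 did not pass that test (-0.18, adjusted p = 0.758).

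CIITA, the relative of NLRC5 that activates class II genes, did not pass in either late over early comparison. CIITA stood at 131, 132 and 54.8 CPM in late unstimulated libraries, against 106, 86.5 and 72.7 CPM in early unstimulated libraries. In stimulated cells the levels were 84.1, 116 and 118 CPM in late libraries, against 149, 102 and 101 CPM in early libraries. The groups overlapped in both comparisons, and late unstimulated library 3 was the lowest library of all 12. The log2 fold changes were 0.26 (95% interval -0.25 to 0.76; adjusted p = 0.421, edgeR) and -0.14 (-0.64 to 0.36; adjusted p = 0.683). Without late unstimulated library 3 CIITA passed as higher in late unstimulated cells, with 0.57 (adjusted p = 0.0141). Whether CIITA and NLRC5 differ in their change was not tested.

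Class I molecules themselves were followed through 6 rows that the authors' tables describe as MHC class I heavy chains (A on 2 rows, and B, E, I and AG). These rows were found only because the authors' tables list them as passing, and macaque class I genes occur in many similar copies that share reads, so their levels are uncertain. All 6 were lower late, with log2 fold changes from -0.74 to -0.27 in unstimulated and from -0.94 to -0.53 in stimulated cells, which is less than for PSMB8 or PSMB9. In unstimulated cells the E row and an A row lost their calls in 3 and 8 of 20 alternatives. The B row (ENSMMUG00000029841) stood at 566, 559 and 625 CPM in late unstimulated libraries, against 993, 938 and 992 CPM in early unstimulated libraries. With stimulation it stood at 573, 571 and 596 CPM in late libraries, against 1192, 997 and 1007 CPM in early libraries. No late library of this row came near an early one.

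On stimulation at 4.5 months the 6 heavy chain rows had log2 fold changes from 0.13 to 0.29, with no overlap between the groups, as for 12.6% of tested genes with higher values in stimulated libraries. None passed in edgeR (adjusted p from 0.16 to 0.525; 4 had an unadjusted p under 0.05), while 2 rows (ENSMMUG00000039470 and ENSMMUG00000044002) passed as higher by DESeq2 and without both libraries that stood apart, and with library totals alone they lay between -0.15 and 0.01. At 19 months the 6 rows lay between -0.05 and 0.03.

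A further list of 7 class I heavy chains and relatives had 5 tested genes. Of these 1 was lower in late unstimulated libraries (median -0.61), where 19.8% of all tested genes were lower. In late stimulated libraries 4 were lower (median -0.80), where 19.7% of all tested genes were lower. Among the 4 were MAMU-F and MR1, with means of only 5.7 and 3.0 CPM over the 12 libraries. Their calls were lost in 9 and 15 of 20 alternatives. Without early stimulated library 1 the counts of lower genes in this list were 2 and 2. CD1D, which presents lipids to NKT cells, was lower in both, with log2 fold changes of -1.12 (adjusted p = 5.73e-07, edgeR) and -1.13 (adjusted p = 5.23e-07). FCGRT, the neonatal Fc receptor, was lower in stimulated cells, with -0.57 (adjusted p = 0.0033).

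Other proteasome genes that passed did so in both directions. Of 13 tested constitutive 20S subunits, 4 were lower and 2 higher in late unstimulated libraries (median -0.29), and 5 were lower and 1 higher in late stimulated libraries (median -0.23). Over all tested genes the shares were 19.8% lower and 20.9% higher in unstimulated cells, and 19.7% and 19.1% in stimulated cells, which also applies to the lists that follow. Without the rows named only in the authors' tables these counts were 3 and 1 of 11, and 4 and 0 of 11. PSMA7, a subunit of the outer rings, had log2 fold changes of -0.76 (adjusted p = 0.000201, edgeR) and -0.77 (adjusted p = 0.000219), and PSMB3, a subunit of the inner rings without catalytic activity, had -0.60 (adjusted p = 0.00344) and -0.83 (adjusted p = 0.000176). PSMA1, also of the outer rings, was higher in unstimulated cells, with 0.41 (adjusted p = 0.00491). Subunits of one barrel thus had fold changes of both signs.

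Of 17 tested genes of the 19S particle, which recognises and unfolds ubiquitin-tagged proteins, 1 was lower and 1 higher in late unstimulated libraries (median -0.10). In late stimulated libraries 7 were lower and 1 higher (median -0.35), against 5 and 3 with upper-quartile factors and 2 and 3 with library totals alone. The lower count in unstimulated cells rested on the libraries that stood apart: without early stimulated library 1 it was 3, without late unstimulated library 3 it was 2, and without both it was 7. For the 20S subunits that count was 6, 6 and 7. PSMD12, a subunit of its lid, was the higher one in unstimulated cells (0.62, adjusted p = 0.00372), and PSMD4, a ubiquitin receptor, was lower in stimulated cells (-0.66, adjusted p = 0.00498). PSMF1, an inhibitor of the proteasome, was lower in late unstimulated libraries (-0.57, adjusted p = 0.0201) and in early stimulated against early unstimulated ones (-0.65, adjusted p = 0.0349), calls that were lost in 4 and 8 of 20 alternatives. Of the 6 tested genes in its list of other activators and assembly factors, that was the 1 lower gene in late unstimulated libraries and none was higher, although 2 were higher without early stimulated library 1. In late stimulated libraries PSME3 was the 1 higher gene and none was lower.

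Other genes of peptide trimming and loading passed in both directions. Of 13 tested, 1 was lower and 1 higher in late unstimulated libraries, where 19.8% of all tested genes were lower and 20.9% higher. In late stimulated libraries 3 were lower and 1 higher, where 19.7% of all tested genes were lower and 19.1% higher. The median of the list was -0.09 in each comparison. Without early stimulated library 1 the lower ones were 3 and 4, and with upper-quartile factors or library totals alone 0 were lower in stimulated cells. LAP3, an aminopeptidase, had log2 fold changes of -0.48 (adjusted p = 0.00779, edgeR) and -0.44 (adjusted p = 0.0138), the second lost in 3 of 20 alternatives. HSPA5, a chaperone of the endoplasmic reticulum, was higher in late unstimulated libraries, with 0.46 (adjusted p = 0.000963), and on stimulation at 4.5 months, with 0.47 (adjusted p = 0.00457). The second of these calls was lost with library totals only, where the log2 fold change was 0.19, and without early unstimulated library 1. ERAP1, which trims peptides in that compartment, had -0.29 in unstimulated cells and did not pass (adjusted p = 0.0931).

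Genes of class II presentation, which displays peptides from the endosomal route, had medians closer to 0 than the 6 immunoproteasome and loading genes. Of 13 tested, 4 were lower and 1 higher in late unstimulated libraries (median -0.19), and 10 were lower and 1 higher in late stimulated libraries (median -0.41). The first count was 7 without early stimulated library 1, 7 without late unstimulated library 3 and 10 without both. Leaving out rows named only in the authors' tables, 2 of 10 were lower in unstimulated and 7 of 10 in stimulated cells. With library totals alone, 4 of 13 were lower in late stimulated libraries. MAMU-DOB, a modulator of class II loading that lies near PSMB8 and TAP2 in the RefSeq assembly, had a log2 fold change of -2.04 in unstimulated cells (adjusted p = 8.02e-05, edgeR). CD74, the invariant chain, had -0.57 in stimulated cells (adjusted p = 0.00135).

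**Figure D4:**
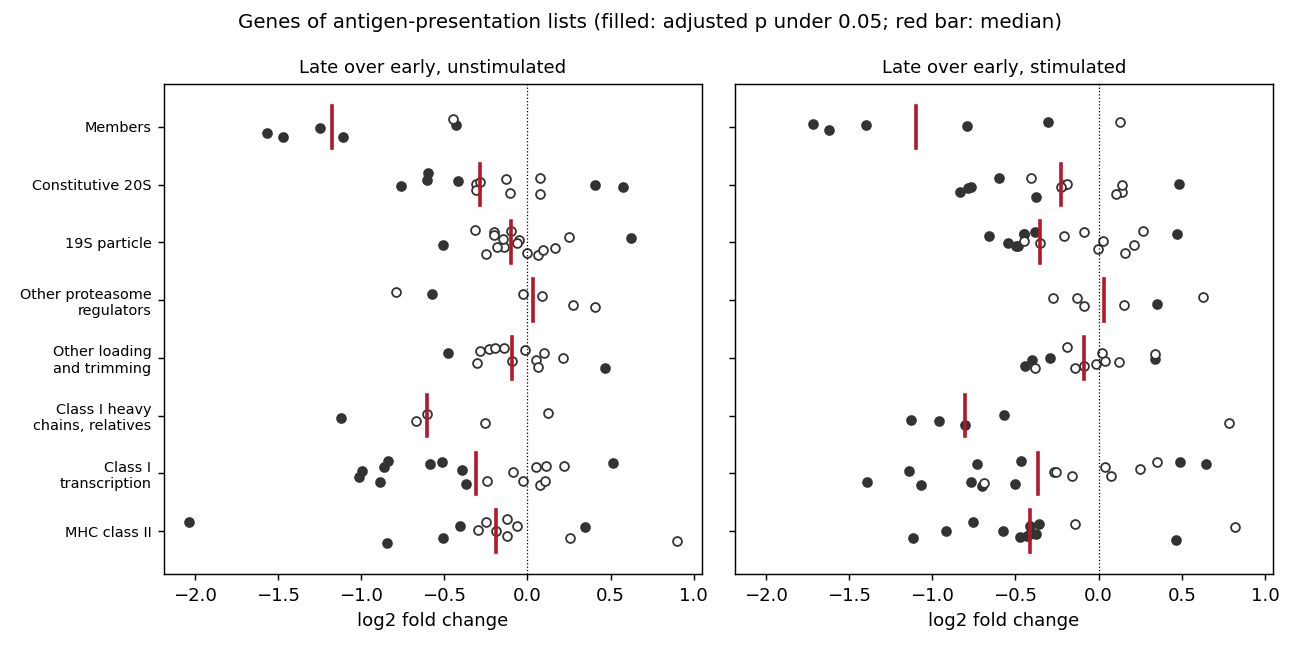
Log2 fold change of late over early (horizontal axes) for each tested gene of 8 lists (rows), in unstimulated (left) and stimulated cells (right); filled points passed an adjusted p of 0.05 in edgeR and red bars are medians. The median of the 6 immunoproteasome and loading genes is -1.18 in unstimulated and -1.09 in stimulated cells, and those of the 20S lists are -0.29 and -0.23.

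Genes whose levels followed the immunoproteasome most closely were ranked by Pearson correlation with the mean log2 CPM of PSMB8 and PSMB9 over the 12 libraries. Of 6616 named genes with a mean of at least 5 CPM, 727 had r above 0.9 and 283 above 0.95. The libraries fall into late and early ones, which many genes separate, so the ranking is a description. MYD88, an adaptor of Toll-like receptors, was among the highest, with r = 0.993. It averaged 102 ± 1.04 CPM in late stimulated, 134 ± 12.7 CPM in late unstimulated, 344.5 ± 62.6 CPM in early stimulated and 402 ± 15.1 CPM in early unstimulated libraries (SD, n = 3 each). TREX1, a nuclease that degrades cytosolic DNA, had r = 0.992. STING1, which signals the presence of cytosolic DNA, had r = 0.989. CYB561A3, a lysosomal cytochrome, followed with r = 0.989 and ACTB, cytoplasmic actin, with r = 0.988. UNC93B1, a chaperone of endosomal Toll-like receptors, and TPP1, a lysosomal peptidase, both had r = 0.986.

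The order of the group means differed between the genes. PSMB8, PSMB9 and PSME2 were lowest in late stimulated libraries, followed by late unstimulated, early stimulated and early unstimulated ones. TAPBP had its lowest mean in late unstimulated libraries. NLRC5 had its highest mean in early stimulated libraries through library 1 alone, since the other libraries of that group, at 26.8 and 28.7 CPM, lay below every early unstimulated one. PSME1 ran from late unstimulated over early stimulated and late stimulated to early unstimulated libraries. For PSMB9, TAPBP and NLRC5 the stimulated and unstimulated libraries of the same time overlapped, so the order of those neighbours is uncertain. For PSMB8 the late neighbours did not overlap while the early ones did, and for PSME2 it was the other way round.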

How the data were processed

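RNA was measured in 12 libraries, made with SMART-Seq V4 and Nextera XT, which do not mark the strand, per the labels' protocols. The deposited gene table holds raw counts per gene and library. Mmul_8.0.1 and bcl2fastq are named, per the submitters' processing notes; the aligner and counter were not given in those sources. The authors' deposited tables of late over early list genes with an adjusted p under 0.05 and hold log2 fold changes with standard errors, p-values and a test score, of which the score was not used. Of 32386 rows, 2529 held a symbol in the count table, of which those with a symbol shared by another row were left unnamed. A macaque name table named 12765 rows and the authors' tables alone 407, and 15685 rows were named in all. No column was left out, and 6017 genes had no count in any library.

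Counts were tested with edgeR 4.0.16 in R 4.3.3 (robust quasi-likelihood F test, TMM scaling, filterByExpr by group, a coefficient per group over 12 libraries, Benjamini-Hochberg over 11826 genes, threshold 0.05). The biological coefficient of variation was 0.143. Ratios used exact permutation tests over libraries. The Poisson interval given for PSME1 in early stimulated library 1 covers counting error only, and reads carry no molecular identifiers. Intervals of log2 fold changes rest on the standard errors of the edgeR fit, which include the spread between libraries. The members and lists were chosen with earlier results of these data known. Named were all members, up to 4 genes per list and comparison with the smallest p, PSMB5, PSMB6, IRF1 and CIITA, and the 8 genes most like the immunoproteasome, for which PSMB8 and PSMB9 stood in because PSMB10 was not matched; PSME3 and the heavy chain rows were added after their values were seen. Some genes that this rule names are not reported here. Alternatives were RLE and upper-quartile factors, no filter beyond a count above 0, DESeq2 1.42.0, only the compared groups, a replicate block, and leaving out each library. Chosen after seeing the data were library totals only and leaving out the 2 libraries that stood apart. The pipeline was checked on simulated data.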

Additional observations from a re-analysis of the deposited data

How the results depend on the processing

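The calls of PSMB8, PSMB9, TAPBP and NLRC5 in both late over early comparisons kept their direction and their side of the threshold in all 20 alternatives, with log2 fold changes from -1.92 to -0.63. PSME2 in unstimulated cells lost its call with upper-quartile factors (adjusted p = 0.0503, edgeR), and in stimulated cells with RLE (0.0734), upper-quartile factors (0.193), library totals only (0.317), the replicate block (0.0612), only the compared groups (0.101) and 8 single libraries left out (0.0504 to 0.117). Deviations of same-numbered libraries from their group means had correlations from -0.0855 to 0.0968. Those of differently numbered libraries ran from -0.0861 to 0.104. The labels do not say whether the numbers pair samples, and with 3 libraries per group these correlations cannot decide it. With the replicate block 4596, 4354, 727, 0 and 114 genes were called in late over early unstimulated and stimulated cells, stimulation at 4.5 and 19 months, and the interaction. The cause of these changes was not tested.

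Members called on stimulation at 4.5 months were 0 as reported, 3 with library totals only, 0 to 1 with each library left out and 1 without both libraries that stood apart. Genes called there were 855 as reported, 2413 with library totals only, 503 with only the compared groups, 464 to 1554 with a library left out and 2157 without both libraries. At 19 months they were 0 as reported, 2 with upper-quartile factors, 5 with no low-count filter, 15 by DESeq2, 10 with only the compared groups, 0 to 29 with a library left out and 71 without both. For the interaction they were 167 as reported, 312 by DESeq2, 95 to 546 with a library left out and 852 without both.

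Among the 6 genes, no log2 fold change that changed sign passed the threshold in any of the alternatives. The 4 ratios could not pass in any of them. With 3 against 3 libraries the smallest exact permutation p is 0.1, and fewer libraries allow none smaller. With each library left out in turn, the log2 fold change ran from -0.035 to 0.255 for PSME1 late over early in stimulated cells, from -0.266 to 0.146 for NLRC5 on stimulation at 4.5 months and from -0.0883 to 0.0883 for PSME2 at 19 months. In the interaction it ran from -0.232 to 5.96e-05 for PSMB8, from -0.344 to -0.0044 for PSMB9 and from -0.302 to 0.106 for NLRC5. The PSMB8 to PSMB5 ratio ran from -0.107 to 0.0407 on stimulation at 4.5 months, and the PSME2 to PSME3 ratio from -0.237 to 0.0295 there and from -0.102 to 0.060 at 19 months. Without both libraries that stood apart, PSME1 late over early in stimulated cells was -0.03, PSME2 on stimulation at 19 months 0.09, and the interaction 0.10 for PSMB9 and 0.17 for NLRC5. NLRC5 on stimulation at 4.5 months was 0.012 with upper-quartile factors and 0.0068 by DESeq2. With library totals only the interaction was 0.0934 for PSMB8, 0.0908 for PSMB9 and 0.0958 for NLRC5. PSME1 counts as low as 34 limit its precision.

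Upper-quartile factors moved the median of all genes to 0.15 in both late over early comparisons, and library totals only moved it to 0.20 in stimulated cells, -0.28 on stimulation at 4.5 months and 0.23 in the interaction. Of the genes called late over early in unstimulated cells 51.3% were higher as reported, 63.3% with upper-quartile factors, 61.2% with no low-count filter and 64.5% by DESeq2. In stimulated cells these shares were 49.3% as reported, 61.0% with upper-quartile factors and 65.2% with library totals only. On stimulation at 4.5 months they were 63.3% as reported and 11.6% with library totals only, and in the interaction 13.2% and 61.4%.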
